A study of Mus musculus with 7 samples.

Results

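The neuregulins (*Nrg1*, *Nrg2*, *Nrg3* and *Nrg4*) and the ErbB receptors (*Egfr*, *Erbb2*, *Erbb3* and *Erbb4*) were followed through the cell types of the mouse hippocampus. These 8 genes were chosen by name and all 8 were found among the 55536 genes of the deposited tables. The study asked how PMX205, an antagonist of the complement receptor C5aR1, changes gene expression in the Arctic48 (Arc) mouse model of Alzheimer's disease, which carries a human APP transgene with familial mutations in the hemizygous state on a C57BL6/J background. The promoter of the transgene was not given in the sources used here. Wild-type (WT) mice from the same crosses and Arc mice received PMX205 at 20 µg/ml in the drinking water for 12 weeks as labelled (the published text describes a somewhat shorter period), or water without it (vehicle, veh), were housed singly and were perfused at 10 months of age. Nuclei from hippocampal tissue of 1 mouse entered each of 24 first-round barcoding wells, so that each of the 4 groups (WT-veh and WT-PMX, Arc-veh and Arc-PMX) had 6 wells, from 3 females (F) and 3 males (M). The well was taken as the replicate, and the methods do not describe pooling of mice for nuclei.

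Neuregulins are growth factors with an EGF-like domain, made mostly as membrane-bound precursors from which proteases release or expose the ligand. They bind ERBB3 or ERBB4, which pair with each other or with ERBB2, while EGFR binds other ligands such as EGF and TGFα; ERBB3 has a weak kinase and ERBB2 has no known ligand of its own. In the forebrain *Erbb4* is best known in GABAergic interneurons, and neuregulin signals act on interneuron wiring, synapses and cells of the oligodendrocyte lineage.

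After filters and doublet removal 43885 nuclei remained, of which 25702 were neurons and 4033 lay in clusters that were left unnamed. Each well held 1150 to 3111 nuclei and 4389302 to 30001277 transcripts (median 12242300). *Xist* and *Ddx3y* matched the sex label in all 24 wells, and *App* in neurons ranged from 445 to 574 CPM (the gene's transcripts scaled to 1000000 transcripts of the cell type in a well) in WT and from 546 to 795 CPM in Arc wells, so the ranges overlapped. Wells WT-veh F3 and WT-veh M3 stood apart, with 14 and 28 oligodendrocytes and 0 and 3 microglia. Cell types were named from marker genes that include none of the 8 genes. Most marker genes were highest in the type they name (all 6 neuronal, 7 of 8 astrocyte, all 7 oligodendrocyte, all 6 OPC and all 8 microglial markers). Fewer were in most neuronal subtypes (3 of 6 in CA3, 4 of 6 in CA1, 4 of 8 in *Slc17a6* neurons, 3 of 5 in Sst, 3 of 5 in MGE or medial ganglionic eminence, and 5 of 9 in CGE or caudal ganglionic eminence interneurons). The Sst and MGE marker lists share *Lhx6* and *Sox6*, and Sst interneurons were named apart. MGE interneurons therefore means here those not named Sst.

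Levels are given as CPM in wells with at least 10 nuclei of the type. Nuclear RNA holds many unspliced transcripts, so long genes give more counts. *Nrg1* (chromosome 8, 31814551 to 32884029, GRCm38), *Nrg3* (chromosome 14, 38368952 to 39473088) and *Erbb4* (chromosome 1, 68032186 to 69108059) span 1069, 1104 and 1076 kb, against 180 kb for *Nrg2*, 166 kb for *Egfr* (chromosome 11, 16752203 to 16918158), 107 kb for *Nrg4* (chromosome 9, 55220222 to 55326844), 25.2 kb for *Erbb2* (chromosome 11, 98412470 to 98437716) and 22.1 kb for *Erbb3* (chromosome 10, 128567523 to 128589652). Levels of different genes were therefore compared per kb of span, and also per kb of exon, since the order can depend on the length used.

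Most transcripts of the ligands lay in neurons and the receptors were divided among interneurons and glia. Neurons held 98.2% of the *Nrg1*, 94.2% of the *Nrg2*, 98.8% of the *Nrg3*, 96.0% of the *Nrg4* and 87.8% of the *Erbb4* transcripts of named nuclei. Astrocytes held 52.4% of the *Egfr* and 70.5% of the *Erbb2* transcripts, and oligodendrocytes 81.9% of the *Erbb3* transcripts. Per kb of span the median neuronal level was 5.06 CPM for *Nrg3*, 1.21 for *Nrg2*, 1.20 for *Nrg1*, 0.803 for *Erbb4*, 0.0796 for *Egfr* and 0.0787 for *Nrg4*. Per kb of exon these levels were 820, 69.5, 124, 70.0, 1.17 and 1.38 CPM, so *Nrg1* stood above *Nrg2* by that length. Shares depend on how many nuclei of each type were recovered and on their depth. The median nucleus held 8212 transcripts in neurons, 1770 in astrocytes and 1126 in oligodendrocytes. Over all genes, neurons held 268692677 transcripts, against 12131540 in astrocytes, 5871176 in oligodendrocytes and 3391402 in OPCs. A large neuronal share is therefore not by itself particular to a gene. The level in all neurons pooled depends on the mix of neuronal subtypes recovered.

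**Figure D1:**
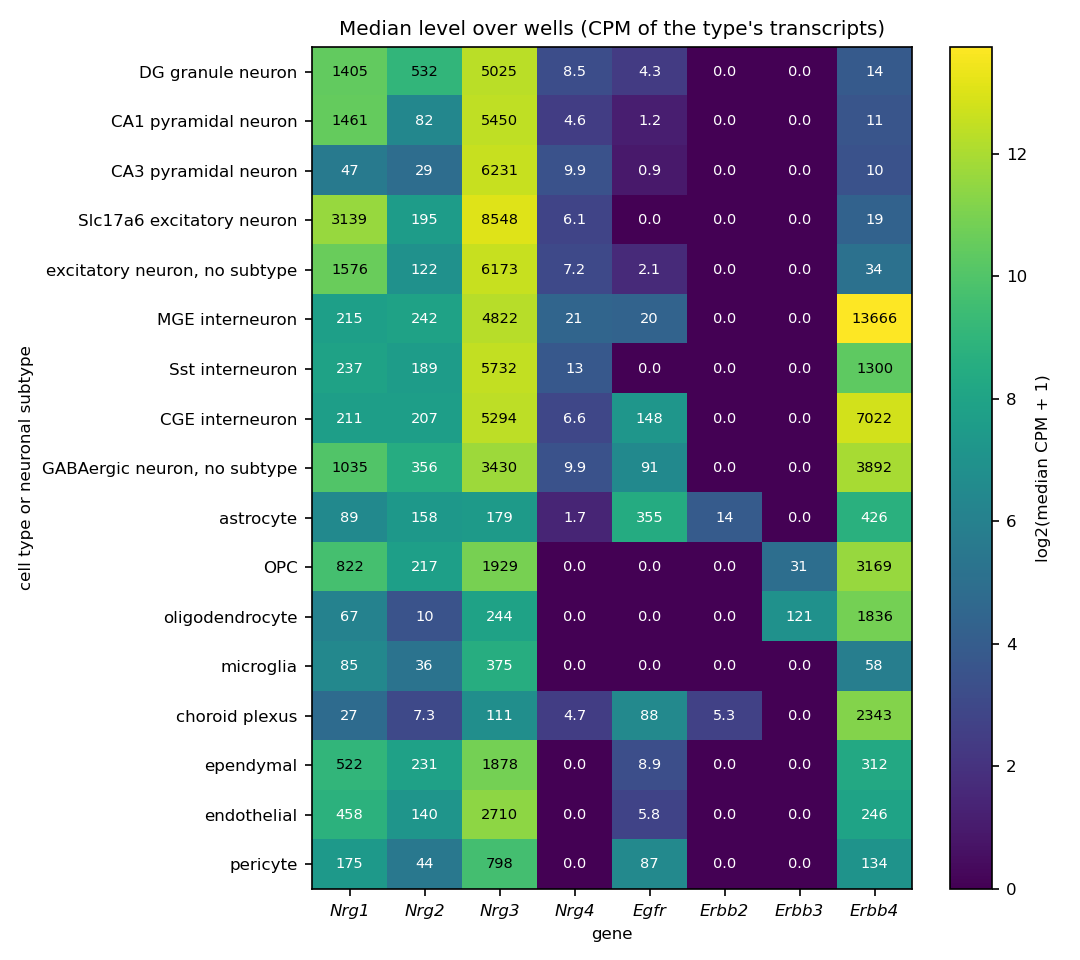
Median CPM over wells of the 8 genes (columns) in the cell types and neuronal subtypes; color gives log2(median CPM + 1) and the printed value is the median CPM. *Nrg3* is high in every neuronal subtype, *Erbb4* is highest in MGE interneurons (13666 CPM), *Egfr* in astrocytes (355 CPM) and *Erbb3* in oligodendrocytes (121 CPM).

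Free RNA from broken cells can give neuronal transcripts in glial nuclei. The level of each neuronal gene in glia was therefore set beside that of 6 neuronal markers (*Rbfox3*, *Snap25*, *Syt1*, *Grin1*, *Celf4* and *Meg3*). The markers reached 2.48% to 4.47% of their neuronal level in astrocytes, 3.86% to 5.09% in oligodendrocytes and 3.71% to 9.93% in microglia. *Nrg3* reached 3.20%, 4.36% and 6.70% in these 3 types, within the range of the markers, and is read there as background. *Nrg1* reached 6.94%, 5.22% and 6.61%, above the markers in astrocytes and, by little, in oligodendrocytes. The markers were at 25.8% to 48.0% in endothelial, 9.79% to 25.6% in pericyte and 26.3% to 41.3% in ependymal nuclei. *Nrg1*, *Nrg3* and *Erbb4* in these types (between 13.6% and 48.5% of the neuronal level) are not read as expression. The source of the neuronal transcripts there was not tested. Barcodes with fewer than 100 transcripts, taken as a measure of free RNA, had medians over wells of 1139 CPM for *Nrg1* and 4759 CPM for *Nrg3*, close to the neuronal medians of 1287 and 5589 CPM.

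*Nrg1*, the neuregulin best known for its many isoforms, varied more between neuronal subtypes than *Nrg2* or *Nrg3*. Its level was 2172 to 3763 CPM (median 3139) in the *Slc17a6* excitatory neurons. These were named from a list of 8 markers that begins with *Slc17a6*, a vesicular glutamate transporter. CA1 pyramidal neurons ranged from 784 to 2074 CPM (median 1461) and dentate gyrus (DG) granule neurons from 935 to 1745 CPM (median 1405). CA3 pyramidal neurons stood apart from both, with 12.0 to 100 CPM (median 46.9), and no CA3 well reached the lowest CA1 or DG well. After each nucleus was thinned to 500 transcripts, *Nrg1* was found in 63.4% of *Slc17a6* nuclei, 41.6% of DG nuclei, 38.7% of CA1 nuclei and 1.91% of CA3 nuclei (unthinned 94.6%, 85.1%, 83.8% and 29.8%), although CA3 nuclei were the deepest of these (median 16999 transcripts against 5996 to 10965). The CA1 level lay above the DG level in 14 of 24 wells, so these neighbors did not differ beyond their spread.

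Interneurons had less *Nrg1*. The medians were 237 CPM in Sst, 215 CPM in MGE and 211 CPM in CGE interneurons, and neighbors in this order changed places between wells (Sst above MGE in 14 of 24, MGE above CGE in 11 of 24). GABAergic neurons without a subtype were higher, at a median of 1035 CPM, with a wide range of 508 to 3318 CPM. This group pools clusters recovered unevenly between wells, such as a cluster led by *Rarb*, *Foxp2* and *Rgs9* (136 nuclei in 16 wells, at most 61 per well). *Drd2* and *Adcy5* are also among the leading genes of that cluster. The part of this unevenness in the range was not tested. Whether all neurons of the group are hippocampal interneurons was not tested either. In oligodendrocyte progenitor cells (OPCs) *Nrg1* was at 432 to 1224 CPM (median 822), 63.9% of the neuronal level, while the neuronal markers there were at 2.17% to 26.2%.

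**Figure D2:**
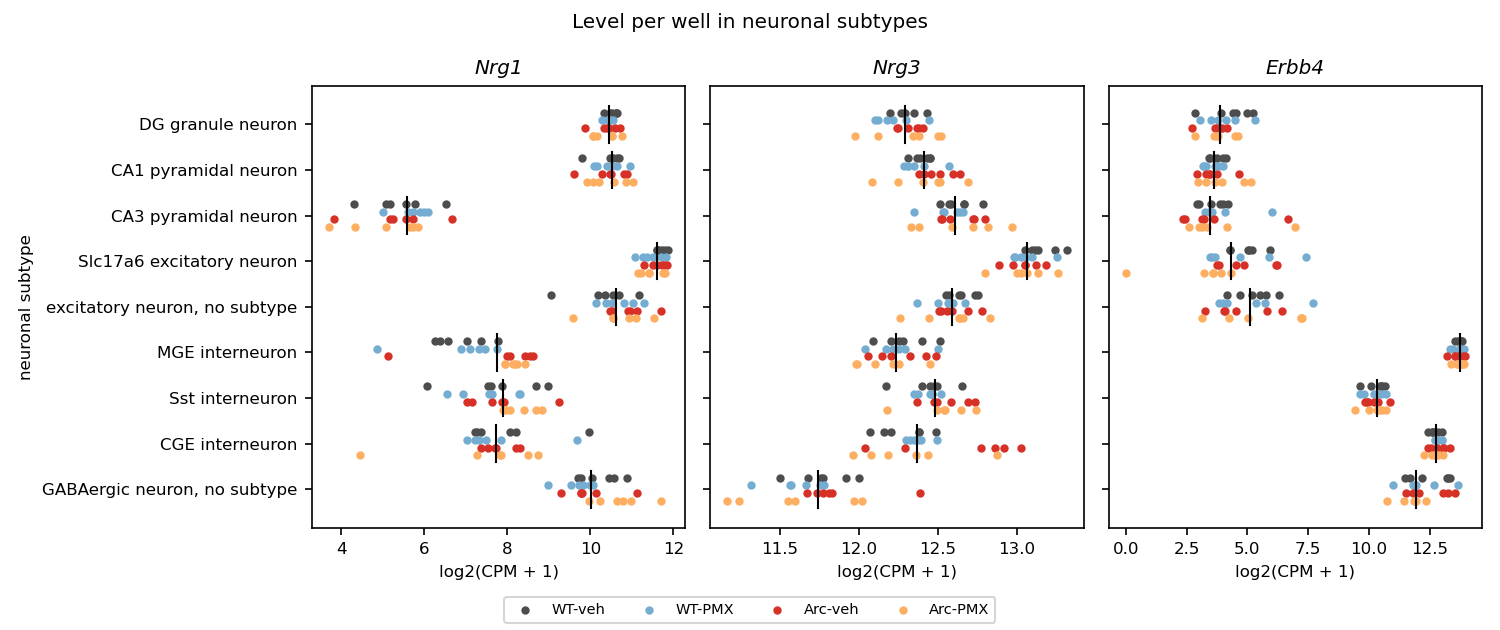
Level of *Nrg1*, *Nrg3* and *Erbb4*, as log2(CPM + 1), in each of 9 neuronal subtypes; each point is 1 well, colored by group, and the line is the median of all wells. *Nrg1* drops in CA3 neurons (median 46.9 CPM), *Nrg3* varies little (medians 3430 to 8548 CPM), and *Erbb4* separates interneurons from excitatory neurons.

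*Nrg2*, a neuregulin with a structure like that of *Nrg1*, was highest in DG granule neurons, where it ranged from 405 to 701 CPM (median 532). DG neurons held 50.6% of all *Nrg2* transcripts of named nuclei. CA1 neurons ranged from 65.3 to 115 CPM (median 82.4) and CA3 neurons from 15.1 to 54.5 CPM (median 28.8), so that the ranges of DG, CA1 and CA3 wells did not overlap. MGE interneurons were at a median of 242 CPM, and CGE, *Slc17a6* and Sst neurons lay close together at medians of 207, 195 and 189 CPM, with each above the next in 16 and 13 of 24 wells. Among glia, OPCs had a median of 217 CPM, as high as all neurons pooled (99.3% of the neuronal level), and astrocytes 158 CPM (72.3%). Both lay above the range of the neuronal markers in the same nuclei. The share was also above the markers in microglia (16.7%), endothelial (64.4%) and ependymal nuclei (106%). Wells there ranged widely on few transcripts, from 0 to 114, 0 to 333 and 35.7 to 521 CPM. In pericytes the share was within the markers (20.0%). In oligodendrocytes the median was 10.5 CPM, 4.80% of the neuronal level and within the range of the markers.

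*Nrg3*, the neuregulin most restricted to the nervous system, was the most even. It ranged from 7134 to 10184 CPM (median 8548) in *Slc17a6* neurons, from 5152 to 8030 CPM (median 6231) in CA3 neurons and from 4020 to 5878 CPM (median 5025) in DG neurons. All 3 interneuron subtypes lay between medians of 4822 and 5732 CPM. The order of CA1, CGE, DG and MGE neurons was not stable, each standing above the next in 15 or 16 of 24 wells. OPCs had 1451 to 2520 CPM (median 1929), 34.5% of the neuronal level, above the 26.2% of *Snap25*, the marker with the highest share there.

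*Nrg4*, a ligand known mainly from brown fat and other peripheral tissues, was sparse, with 2367 transcripts in all named nuclei. Its median was 21.4 CPM in MGE interneurons (4.27 to 46.6), which lay above Sst interneurons (0 to 25.8, median 12.5) in 18 of 24 wells. CA3, DG and CA1 neurons followed at medians of 9.92, 8.47 and 4.57 CPM. In OPCs, oligodendrocytes and microglia the median was 0. At this depth the lower levels could not be ordered.

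*Erbb4*, which binds neuregulins directly, was highest in interneurons. It ranged from 9501 to 15918 CPM (median 13666) in MGE interneurons, which leave out those named Sst. The range was 4916 to 10468 CPM (median 7022) in CGE interneurons and 692 to 1881 CPM (median 1300) in Sst interneurons. MGE lay above CGE interneurons in 24 of 24 wells. With nuclei named one by one from marker scores, the mean over wells in MGE interneurons was 7816 CPM instead of 13260 CPM. In excitatory neurons it was near 0 on this scale, with medians of 13.8 CPM in DG, 11.5 in CA1 and 10.0 in CA3 neurons, far below the 863 CPM of barcodes with fewer than 100 transcripts. After thinning to 500 transcripts it was found in 99.4% of MGE and 87.8% of CGE nuclei and in 1.06% of DG nuclei (unthinned 100%, 99.5% and 8.93%).

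*Erbb4* was also present outside neurons. OPCs had 2705 to 3934 CPM (median 3169), choroid plexus cells 1757 to 2922 CPM (median 2343, 12 wells) and oligodendrocytes 1453 to 2205 CPM (median 1836), each more than all neurons pooled (median 864). OPCs lay above choroid plexus in 12 of 12 wells with both, and oligodendrocytes above Sst interneurons in 22 of 24. Astrocytes had 276 to 614 CPM (median 426), 49.3% of the neuronal level. Microglia were at 6.75% of it, within the range of the neuronal markers there.

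*Erbb3*, the receptor with a weak kinase that needs a partner, was at or near 0 outside the oligodendrocyte lineage (median 0.0801 CPM in all neurons pooled and 0 in every subtype and other glial type). Oligodendrocytes ranged from 48.4 to 236 CPM (median 121) and OPCs from 12.4 to 97.8 CPM (median 30.6), and oligodendrocytes lay above OPCs in 24 of 24 wells. Only 965 transcripts were counted in all. Per kb of span the oligodendrocyte median was 5.48 CPM for *Erbb3* and 1.71 CPM for *Erbb4*, while per kb of exon it was 20.2 and 149 CPM, so the order of these receptors depends on which length is used.

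*Egfr*, the receptor of EGF and related ligands, was highest in astrocytes, where it ranged from 247 to 479 CPM (median 355). Astrocytes lay above CGE interneurons (39.9 to 329 CPM, median 148) in 24 of 24 wells. Within the GABAergic neurons the transcripts were gathered in few clusters. A cluster led by *Reln* and *Ndnf* (145 nuclei, left without a subtype) had 842 CPM and a CGE cluster led by *Adarb2* and *Vip* (256 nuclei) 488 CPM, pooled over wells, both above the 3 astrocyte clusters (260 to 397 CPM). OPCs, oligodendrocytes and microglia had a median of 0.

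*Erbb2*, the partner receptor, gave only 210 transcripts, of which 148 were in astrocytes. The astrocyte level ranged from 0 to 23.0 CPM (median 14.3), choroid plexus cells had a median of 5.30 CPM and every other type a median of 0. Per kb of span, *Erbb2* in astrocytes was at 0.565 CPM, against 2.14 for *Egfr* and 0.396 for *Erbb4*. Per kb of exon these were 2.74, 31.4 and 34.5 CPM, so *Erbb2* stood above *Erbb4* only by span. *Erbb2* did not pass the filter on low counts in any type, so the tests below cover the other 7 genes.

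Over the 18 cell types of WT-veh wells, the genes whose levels followed each gene most closely among 12365 genes were *Dnm1* (Pearson r = 0.968) for *Nrg3*, *Adcyap1r1* (r = 0.920) for *Nrg2*, *Egfem1* (r = 0.824) for *Nrg1* and *Vdac1* (r = 0.853) for *Nrg4*. Among the receptors they were *Sox2ot* (r = 0.870) for *Erbb4*, *Gm32005* (r = 0.924) for *Erbb3*, *Frem1* (r = 0.806) for *Egfr* and *Gm5089* (r = 0.938) for *Erbb2*. The points are cell types from the same wells and are not independent, so the r values describe likeness only. Each is the highest among 12365 genes. Those of *Erbb2* (210 transcripts in all named nuclei) and *Nrg4* (2367) rest on few transcripts.

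The first comparison asked how the genes differ between Arc and WT mice given vehicle. Counts summed per well and type were compared in edgeR by its quasi-likelihood test in a fit that also held sex. A call is an adjusted p (Benjamini-Hochberg, over all genes of a type) under 0.05. In such sums, fewer nuclei that carry a gene and less RNA of it per nucleus cannot be told apart. Of 77 tests of the 7 genes in 18 types (all neurons pooled included), 2 passed, both in astrocytes, against 1.28% of all tests of all genes. In astrocytes 2 of 5 tested members passed and 12.4% of all genes did. The median log2 fold change over the 77 tests was -0.01, and over all genes 0.01.

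*Nrg2* rose in astrocytes of Arc mice. The level was 106 to 135 CPM (median 116) in WT-veh, 74.9 to 126 CPM (median 93.9) in WT-PMX, 182 to 297 CPM (median 248) in Arc-veh and 180 to 298 CPM (median 239) in Arc-PMX wells. All 12 Arc wells lay above all 12 WT wells. The log2 fold change of Arc-veh against WT-veh was 1.0 (SE 0.15, edgeR adjusted p = 6.42e-06), and that of the mean of both Arc groups against the mean of both WT groups 1.14 (SE 0.11, edgeR adjusted p = 5.05e-11). These comparisons share wells and are not independent. The call held when any single well was left out.

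The astrocytes of the groups came from different clusters, which is given here beside *Nrg2* as a description, since the genes that lead the clusters differ with genotype. The cluster led by *Gfap*, *Plce1*, *Osmr* and *C4b* (cluster 13) held a median of 0.589% of a well's astrocyte nuclei in WT-veh and 1.56% in WT-PMX, but 52.3% in Arc-veh and 42.5% in Arc-PMX. The cluster led by *Slc1a2* and *Rorb* (cluster 1) held 91.1%, 88.7%, 33.9% and 43.1%. Cluster 22, led by *Aqp4* and *Rfx4*, held 7.94%, 9.77%, 13.5% and 16.3%. None of the 8 genes was used to form the clusters.

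In clusters 1 and 22, where it was tested, the *Nrg2* difference did not pass. In cluster 1, pooled over wells, *Nrg2* was at 90.4 CPM in nuclei of WT-veh and 94.3 CPM in those of Arc-veh mice, and the log2 fold change was 0.05 (SE 0.23, edgeR adjusted p = 0.972; for the Arc mean 0.35, SE 0.16, edgeR adjusted p = 0.335). In the same cluster *Nrg2* was at 73.8 CPM in WT-PMX (wells 59.1 to 106 CPM) and 118 CPM in Arc-PMX (101 to 173 CPM), a pair that was not tested alone. The astrocyte cluster led by *Aqp4* and *Rfx4* (cluster 22) had 416 CPM in WT-veh mice against 398 CPM in Arc-veh mice. The fit there used only wells with at least 10 nuclei of the cluster, 4 in WT-veh (median 404 CPM) and 6 in Arc-veh (median 428 CPM), and gave a log2 fold change of 0.03 (SE 0.29, edgeR adjusted p = 0.990). With PMX205 such wells ranged from 178 to 423 CPM in WT and from 201 to 631 CPM in Arc mice, a pair that was not tested alone. In cluster 13 the level was 276 CPM in Arc-veh mice and 289 CPM with PMX205. Nuclei of WT-veh and WT-PMX mice pooled had 161 CPM. There were only 36 of them with 13 *Nrg2* transcripts, too few for a test of genotype. WT-veh wells alone had 387 (F1), 0 (M1), 403 (F2), 789 (M2) and 0 CPM (F3) on 1 to 4 nuclei each. WT-PMX wells ranged from 0 to 524 CPM, so the pooled WT level is not set against the Arc levels. The fits within clusters rest on fewer transcripts, and 18 of 4483 genes passed within cluster 1.

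**Figure D3:**
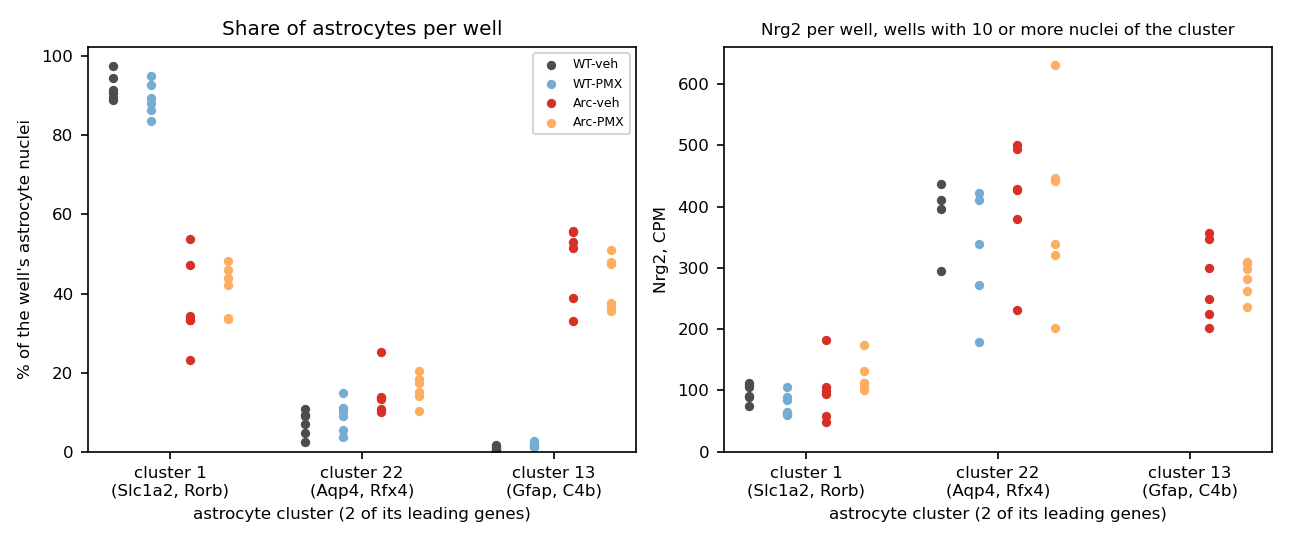
Left, percent of a well's astrocyte nuclei in clusters 1, 22 and 13 by group; right, *Nrg2* level (CPM) in wells with at least 10 nuclei of the cluster. Each point is 1 well. Cluster 13 makes up a median of 52.3% of Arc-veh and 0.589% of WT-veh astrocytes, while *Nrg2* within cluster 1 overlaps between WT and Arc wells.

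*Nrg3* fell in astrocytes, where its share of the neuronal level lay within the range of the neuronal markers. It was 181 to 338 CPM (median 236) in WT-veh and 136 to 213 CPM (median 150) in Arc-veh wells, with overlap. The log2 fold change was -0.67 (SE 0.23, edgeR adjusted p = 0.0464) in vehicle wells and -0.52 (SE 0.16, edgeR adjusted p = 0.0159) for the mean of both Arc groups. The vehicle call held in 10 of 24 fits that each left out 1 well (adjusted p 0.0107 to 0.139) and was lost without any of WT-veh F1, M1, F2, M2 or F3, Arc-veh F1, F2, M2, F3 or M3, WT-PMX F2 or F3, or Arc-PMX F1 or F3, with log2 fold changes of -0.76 to -0.59. When nuclei were named one by one from marker scores it was -0.56 (edgeR adjusted p = 0.206) in vehicle wells and -0.35 (edgeR adjusted p = 0.224) for the Arc mean. The vehicle call was also lost with DESeq2 (adjusted p = 0.0728) and, in edgeR, with RLE scaling, without sex, with nuclei above 500 transcripts, with doublets kept and without WT-veh F3 and M3 (adjusted p 0.0503 to 0.170). The neuronal markers in the same astrocytes moved the same way. Their sum was 527 to 815 CPM (median 668) in WT-veh and 251 to 629 CPM (median 380) in Arc-veh wells, all 6 had a log2 fold change below 0, and 2 of 6 passed (*Syt1* and *Grin1*, both -0.89). Their part in the *Nrg3* difference was not tested.

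The second comparison set the mean of both Arc groups against that of both WT groups, which doubles the wells. Of 68 tests in 15 types 4 passed, against 2.46% of all tests. Beside *Nrg2* and *Nrg3* in astrocytes (19.9% of all genes passed there), these were *Nrg1* in OPCs (2.72% of all genes) and *Nrg1* in MGE interneurons (0.138%).

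*Nrg1* rose in OPCs by a log2 fold change of 0.41 (SE 0.11, edgeR adjusted p = 0.0312). The level was 432 to 947 CPM (median 870) in WT-veh, 576 to 844 CPM (median 726) in WT-PMX, 780 to 1224 CPM (median 999) in Arc-veh and 679 to 1193 CPM (median 791) in Arc-PMX wells, so the groups overlapped. In vehicle wells alone the log2 fold change was 0.50 (SE 0.16, edgeR adjusted p = 0.161). The call held in 15 of 24 fits without 1 well (log2 fold change 0.33 to 0.46, adjusted p 0.0177 to 0.108) and was lost without Arc-veh F1, M2 or F3, WT-veh F2 or M2, WT-PMX F2 or M2, or Arc-PMX M2 or M3. It was 0.28 (edgeR adjusted p = 0.542) with nuclei named one by one, 0.38 (edgeR adjusted p = 0.102) with doublets kept and 0.40 (adjusted p = 0.0535) with DESeq2, none of which passed. None of the 4 neuronal markers tested in OPCs passed.

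*Nrg1* also rose in MGE interneurons, where the groups were 75.1 to 217 CPM (median 112) in WT-veh, 27.9 to 214 CPM (median 147) in WT-PMX, 34.2 to 395 CPM (median 305) in Arc-veh and 245 to 342 CPM (median 287) in Arc-PMX wells. Only 1 Arc well, Arc-veh F3 with 8 *Nrg1* transcripts in 16 nuclei, lay within the WT range. The log2 fold change was 1.11 (SE 0.24, edgeR adjusted p = 0.0347), and 1.17 (SE 0.34, edgeR adjusted p = 0.367) in vehicle wells alone. The call held in 11 of 24 fits without 1 well (log2 fold change 0.96 to 1.23, adjusted p 0.000613 to 0.101) and was lost without WT-veh F1, F2 or M3, WT-PMX F2, F3 or M3, Arc-veh F1, M1, F2 or M2, or Arc-PMX F1, M1 or F2. When nuclei were named one by one from marker scores, it was 0.20 (edgeR adjusted p = 0.999), and DESeq2 gave 1.08 (adjusted p = 0.0565), so neither passed.

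MGE interneurons came from 3 clusters with different *Nrg1* levels. Pooled over wells, the cluster led by *Btbd11* and *Kcnc2* (321 nuclei) had 151 CPM in WT against 334 CPM in Arc wells, that led by *Tll1* (232 nuclei) 87.8 and 90.1 CPM, and that led by *Grik1* and *Corin* (96 nuclei) 327 and 670 CPM. The first held a median of 45.0% of MGE nuclei in WT-veh and 55.6% in Arc-veh wells. Within it the log2 fold change of the Arc mean was 1.27 (SE 0.33, edgeR adjusted p = 0.223).

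**Figure D4:**
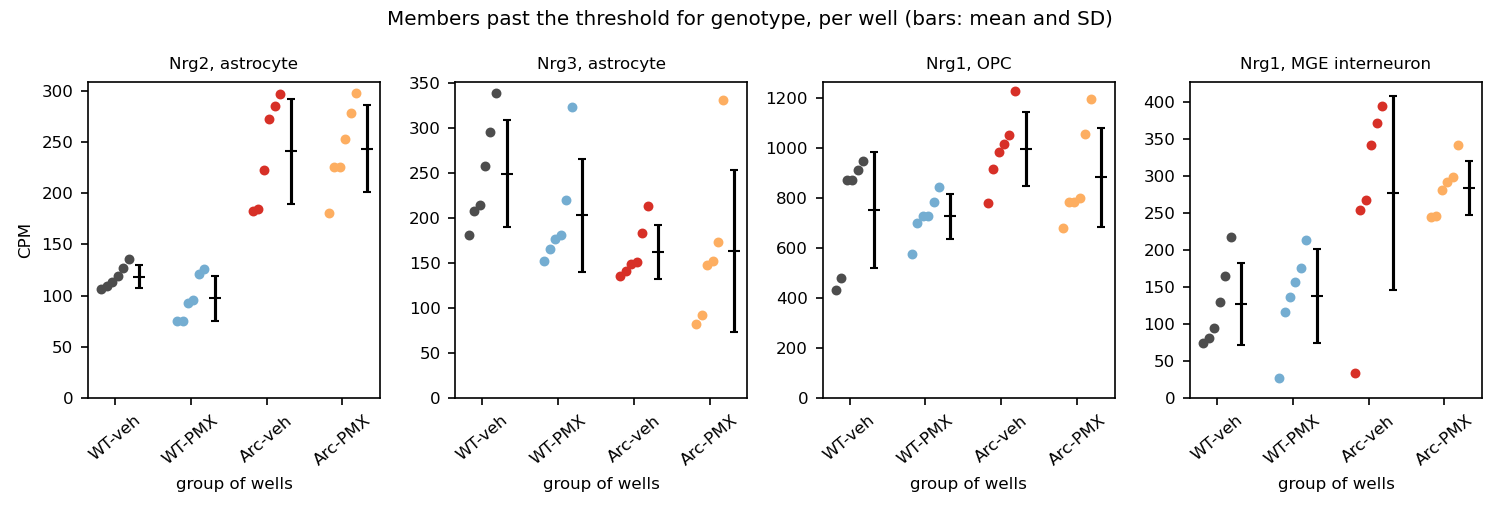
Level (CPM) of *Nrg2* and *Nrg3* in astrocytes and of *Nrg1* in OPCs and MGE interneurons, by group. Each point is 1 well and the bars are the mean ± SD (n = 6). The *Nrg2* groups of Arc and WT wells do not overlap (lowest Arc well 180 CPM, highest WT well 135 CPM), whereas the other genes overlap.

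Neurons gave no call where *Nrg1*, *Nrg2*, *Nrg3* and *Erbb4* were highest. In *Slc17a6* neurons the log2 fold change of Arc-veh against WT-veh was -0.06 (SE 0.13, edgeR adjusted p = 1.0) for *Nrg1* and -0.11 (SE 0.09, edgeR adjusted p = 0.993) for *Nrg3*. *Nrg4* in MGE interneurons did not pass the filter on low counts. *Nrg2* in DG neurons was at medians of 537, 507, 539 and 531 CPM in the WT-veh and WT-PMX, then the Arc-veh and Arc-PMX groups (Arc-veh against WT-veh -0.02, SE 0.08, edgeR adjusted p = 0.984). *Erbb4* in MGE interneurons was at 13861, 13678, 12539 and 13863 CPM (-0.06, SE 0.12, edgeR adjusted p = 0.993). *Nrg3* in all neurons pooled was at 5613, 5343, 5767 and 5726 CPM (0.03, SE 0.09, edgeR adjusted p = 0.952). All these ranges overlapped.

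The glial receptors also gave no call. *Erbb3* in oligodendrocytes was at medians of 102, 146, 140 and 104 CPM in the same order of groups (0.36, SE 0.24, edgeR adjusted p = 0.635). *Erbb4* in OPCs was at 3169, 3256, 3152 and 2936 CPM (-0.01, SE 0.08, edgeR adjusted p = 0.988). *Egfr* in astrocytes was at 368, 342, 328 and 381 CPM (-0.16, SE 0.12, edgeR adjusted p = 0.507). *Erbb4* in astrocytes was at 497, 441, 379 and 426 CPM and came close for the Arc mean (-0.27, SE 0.10, edgeR adjusted p = 0.0544). *Erbb2* in astrocytes, which was not tested, had medians of 10.5, 12.0, 16.9 and 15.2 CPM.

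PMX205 gave no call in these genes. In Arc mice 0 of 70 tests passed (6 at an unadjusted p under 0.05, DESeq2 0), against 0.00484% of all tests, and the lowest edgeR adjusted p was 0.810. In WT mice 0 of 72 passed (3 at an unadjusted p under 0.05, DESeq2 0), against 0.000959% of all tests. The interaction of PMX205 with genotype passed in 0 of 68 tests (6 at an unadjusted p under 0.05, DESeq2 0), against 0% of all tests. These percents are of adjusted calls. The share of all tests at an unadjusted p under 0.05 is not given. The unadjusted counts here, for sex and for the pathway list therefore cannot be set against all genes.

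For the genes that differed with genotype, the log2 fold change of Arc-PMX against Arc-veh was 0.01 (SE 0.13) for *Nrg2* and 0.02 (SE 0.22) for *Nrg3* in astrocytes, 0.01 (SE 0.31) for *Nrg1* in MGE interneurons and -0.19 (SE 0.15) for *Nrg1* in OPCs. The value for *Nrg3* in astrocytes depends on well Arc-PMX M2 (331 CPM), without which it was -0.35 (SE 0.20, edgeR adjusted p = 1.0). *Nrg1* in oligodendrocytes had 1.44 (SE 0.44, edgeR adjusted p = 1.0). There, well Arc-PMX M2 stood at 578 CPM from 102 transcripts, the highest of all oligodendrocyte wells, and without it the log2 fold change was 0.33 (SE 0.30, edgeR adjusted p = 1.0). Without the same well *Nrg1* in oligodendrocytes also passed for the Arc mean (-0.67, edgeR adjusted p = 0.0437), which it did not with all wells (-0.11, edgeR adjusted p = 0.946). A sex difference passed in 0 of 81 tests with edgeR (16 at an unadjusted p under 0.05), against 0.166% of all tests. DESeq2 called 2, *Egfr* (male minus female 0.53, adjusted p = 0.0221) and *Erbb4* (0.33, adjusted p = 0.0416) in neurons, for which edgeR gave adjusted p = 0.129 and 0.140.

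Beyond the 8 genes, 59 genes of the pathway were followed, namely other ligands of the EGF family, sheddases that release ligands, adaptors and effectors, regulators of receptor turnover, and scaffolds. Of 625 tests in vehicle wells 10 passed, 6 higher and 4 lower in Arc, against 1.28% of all tests. For the Arc mean 18 of 571 passed, 11 higher and 7 lower, against 2.46% of all tests. Neither PMX205 nor sex gave a call in edgeR: 0 of 579 tests passed in Arc mice (16 at an unadjusted p under 0.05, DESeq2 0), 0 of 582 in WT mice (20, DESeq2 0), 0 of 571 for the difference (18, DESeq2 0) and 0 of 650 for sex (92, DESeq2 3).

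Most calls were in astrocytes, with 7 of 46 tests in vehicle wells (12.4% of all genes). *Lrig1*, which promotes the degradation of ErbB receptors, was at 145 to 317 CPM (median 181) in WT-veh and 346 to 408 CPM (median 402) in Arc-veh wells, with no overlap (log2 fold change 1.04, SE 0.15, edgeR adjusted p = 1.51e-06). *Erbin*, a scaffold that binds ERBB2, was at 121 to 233 CPM (median 197) and 283 to 438 CPM (median 320), also without overlap (0.78, SE 0.14, edgeR adjusted p = 4.56e-05). *Shc4*, an adaptor of the Shc family, rose from a low level (median 7.34 to 28.1 CPM, 1.63, SE 0.38, edgeR adjusted p = 0.00215), and *Gab1*, a docking protein, by 0.47 (SE 0.14, edgeR adjusted p = 0.0207). The *Gab1* call was lost without well WT-veh F2 or Arc-veh F3 (edgeR adjusted p up to 0.0886) and without the filter on low counts (edgeR adjusted p = 0.0551).

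Of the genes that fell in Arc astrocytes, *Cspg5* (neuroglycan C, a proteoglycan with an EGF-like domain) was at 467 to 585 CPM (median 526) in WT-veh and 275 to 464 CPM (median 361) in Arc-veh wells, without overlap (-0.56, SE 0.13, edgeR adjusted p = 0.00188). *Akt2*, a kinase downstream of PI3K, had -0.62 (SE 0.17, edgeR adjusted p = 0.00921) and *Magi2*, a synaptic scaffold, -0.38 (SE 0.09, edgeR adjusted p = 0.00286). The 6 neuronal markers in the same astrocytes were lower too, by log2 fold changes of -0.95 to -0.54, and their part in the *Magi2* difference was not tested. Within cluster 1 the genotype difference of *Lrig1* was 0.56 (edgeR adjusted p = 0.222) and that of *Erbin* 0.07. None of the sheddases passed in any type.

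**Figure D5:**
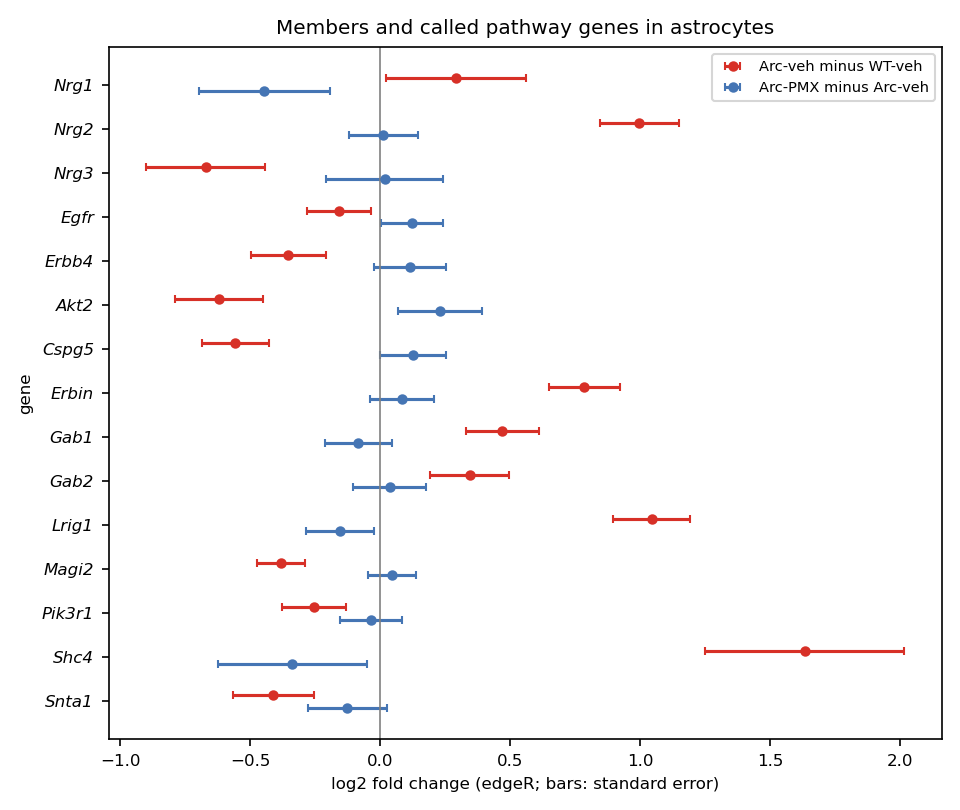
Log2 fold change ± SE in astrocytes of 5 members and of 10 pathway genes called for genotype, for Arc-veh minus WT-veh (red) and Arc-PMX minus Arc-veh (blue); 6 wells a group. *Lrig1* (1.04) and *Nrg2* (1.0) lie far right in the genotype comparison, while for PMX205 *Nrg2* is at 0.01; both comparisons share the Arc-veh wells.

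Outside astrocytes, microglia gave 2 of 23 calls in vehicle wells (11.5% of all genes), among them *Gab1* (-1.02, SE 0.32, edgeR adjusted p = 0.0295), a call that was lost without WT-veh F1, M1 or F2 or Arc-veh F3 and in 4 of 10 other alternatives (adjusted p up to 0.584). Oligodendrocytes gave 1 of 33 (2.85% of all genes), *Erbin* (0.51, SE 0.13, edgeR adjusted p = 0.0211), lost without WT-veh M3 (edgeR adjusted p = 0.0602) and in 2 of 11 other alternatives. For the Arc mean, *Shc3*, a neuronal Shc adaptor, was lower in DG neurons (-1.03, SE 0.19, edgeR adjusted p = 0.00218) and *Gab2*, a docking protein, was higher in OPCs (0.36, SE 0.10, edgeR adjusted p = 0.0389), against 1.62% and 2.72% of all genes. The *Gab2* call held in only 8 of 24 fits without 1 well and in 4 of 10 other alternatives (edgeR or DESeq2 adjusted p up to 0.341). In microglia 4 of 23 passed for the Arc mean (20.3% of all genes) and in oligodendrocytes 2 of 33 (5.51%).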

How the data were processed

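Nuclei and cells from mouse hippocampus were barcoded by split-pool combinatorial barcoding (Parse) and sequenced as 7 sublibraries, each of which mixes all wells. The deposited matrices hold raw counts of transcripts per gene and cell barcode, which the authors made against mm10 (per the submitters' processing notes). Only single-nucleus wells were used, and the group of each was taken from the deposited sample sheet. Following the study's methods, nuclei with more than 300 and fewer than 50000 transcripts, more than 400 genes and less than 1% mitochondrial transcripts were kept (45138). The study removed doublets with Scrublet. Here Scrublet in scanpy, with a score threshold of 0.25 chosen here, removed 1253. The study excluded a sample labelled WT whose expression was that of Arc mice, without naming it. All 24 wells were used here, and no WT well had more than 2.74% of its astrocytes in the cluster that held at least 33.0% in every Arc well. Of 40769 barcode combinations, 4080 occurred in more than 1 sublibrary; these were kept as separate nuclei.

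Nuclei were clustered (scanpy 1.11.5, leidenalg 0.10.2; 2000 variable genes, 30 components, resolution 1.5) without the members, the pathway list, mitochondrial and sex genes, and clusters were named from marker genes. The naming thresholds were set after the clusters were seen. Counts were summed per well and type, and wells with at least 10 nuclei entered a fit in edgeR 4.0.16 (R 4.3.3; TMM, filterByExpr, 4 groups and sex, at least 3 wells per group). The study's methods give 3 nuclear preparations per sex, genotype and treatment, taken here as 1 mouse each. The members and lists were chosen with earlier results of these data known. The named genes were the 8 members, pathway genes that passed in a genotype comparison, and for likeness the gene with the highest correlation. On simulated counts the astrocyte fit recovered 54.3% of genes changed 2-fold (7116 genes) for Arc-veh against WT-veh and 88.6% for the Arc mean. In the same order it was 17.9% and 59.5% in microglia, 82.8% and 93.2% in neurons and 78.6% and 97.3% in OPCs. The PMX205 comparisons were not simulated. Alternatives were DESeq2 1.42.0, RLE scaling, no filter, no covariate, stricter nuclei, other naming, a replicate block and leaving out wells. The result of 1 pathway gene is not reported here.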

Additional observations from a re-analysis of the deposited data

Results flagged for a closer look

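In 48 groups of 6 wells (12 pairs of gene and cell type), 2 held a well far from the rest by Dixon's test, and chance gives about 1 in 20 groups. *Nrg3* in astrocytes was at 331 CPM in well Arc-PMX M2, against 82.8 to 173 CPM in the other Arc-PMX wells. *Nrg2* in DG neurons was at 405 CPM in well Arc-veh M2, against 535 to 597 CPM in the other Arc-veh wells.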

How the results depend on the processing

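None of the genotype calls of the members and pathway genes changed direction. The PMX205 value of *Nrg3* in Arc astrocytes, which was not a call, changed sign without well Arc-PMX M2, as given above. For Arc-veh against WT-veh (2 calls among the 8 genes), the count was 1 with RLE scaling, without the sex covariate, with nuclei above 500 transcripts, with DESeq2 and without wells WT-veh F3 and M3 (the latter chosen after seeing the data), 4 with nuclei named one by one by marker scores (*Nrg2* in astrocytes, and *Nrg1*, *Nrg2* and *Nrg3* lower in oligodendrocytes), 7 without the filter on low counts, 3 in a fit of only the 2 groups (adding *Nrg1* in oligodendrocytes, -0.91), and 1 to 3 when 1 well was left out. With doublets kept it stayed at 2, but *Nrg3* in astrocytes was lost and *Nrg2* in oligodendrocytes gained (-1.73). In the full fit, neuronal markers in oligodendrocytes were lower too, 4 of 5 in vehicle wells (median log2 fold change -0.68) and 5 of 5 for the Arc mean (-0.49). None of them passed, and their part in the oligodendrocyte calls was not tested. For the Arc mean (4 calls) it was 2 with DESeq2, which kept *Nrg2* and *Nrg3* in astrocytes, 3 with nuclei named by marker scores (*Nrg2* in astrocytes, with *Nrg3* gained in microglia and oligodendrocytes), 8 without the filter and 2 to 6 when 1 well was left out. With doublets kept it stayed at 4, but *Nrg1* in OPCs was lost and *Nrg2* in oligodendrocytes gained. Without the filter, PMX205 gave 5 calls in Arc mice, 1 in WT mice (0 to 1 when 1 well was left out, with the filter) and 3 for the difference, while calls over all genes rose from 5 to 371, from 1 to 188 and from 0 to 184. For sex the count was 7 without the filter, 2 with at least 30 nuclei per well (*Nrg3* in choroid plexus and microglia), 2 with DESeq2 and 0 to 5 when 1 well was left out. The pathway list gave 8 to 14 calls in vehicle wells (10 in the full fit), 15 to 20 for the Arc mean (18) and 0 to 9 for sex when 1 well was left out, and for sex 11 without the filter and 3 with DESeq2. *Nrg2* in astrocytes passed under every alternative run on all astrocytes; within clusters 1 and 22 it did not. *Nrg3* in astrocytes for the Arc mean was lost without WT-PMX M2 (-0.43, edgeR adjusted p = 0.0506). Naming by marker scores lowered the level of *Nrg1* in *Slc17a6* neurons from 3068 to 2319 CPM, of *Nrg3* there from 8682 to 6245 CPM and of *Erbb4* in MGE interneurons from 13260 to 7816 CPM (means), and the neuronal share of transcripts to 82.1% for *Nrg1*, 80.1% for *Nrg2*, 86.5% for *Nrg3*, 82.5% for *Nrg4* and 72.2% for *Erbb4*. The causes were not tested. Replicate numbers do not pair the wells (median correlation of same-numbered wells -0.036 in neurons), and a replicate block left 2 and 4 calls. Rare types and *Erbb2*, *Erbb3* and *Nrg4* are limited by few transcripts.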

Other observations

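A cluster that was left unnamed, led by *Bcas1*, *Cnksr3*, *Tns3* and *Enpp6* (126 nuclei in 24 wells, at most 9 per well), had more *Nrg1* than the OPC cluster. Pooled over wells it had 1668 CPM of *Nrg1* (918 transcripts in 92 nuclei of 23 wells), against 817 CPM in the OPC cluster, and 2592 CPM of *Erbb4*, against 3161 CPM. *Nrg3* was lower, at 643 CPM against 1967 CPM, and *Erbb3* similar, at 32.7 and 33.9 CPM. OPC markers summed to 19363 CPM and oligodendrocyte markers to 10666 CPM in it, and the 6 neuronal markers to 639 CPM, against 1127 CPM in OPCs and 14374 CPM in neurons. With so few nuclei per well no test was run.

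Another unnamed cluster, led by *Ranbp3l*, *Slc6a20a*, *Bnc2* and *Ptgds* (422 nuclei), had 403 CPM of *Egfr*, near the level of astrocytes, and 15.3 CPM of *Erbb2*. Its neuronal markers summed to 2715 CPM.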
